A study of Homo sapiens with 9 samples.

Results

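KAS peaks at the ends of protein-coding genes are stretches where the single-stranded DNA signal of 1 library was called enriched and the centre of the stretch lay within 1 kb of either boundary of a protein-coding gene. Of 34247 KAS peaks, 1135 met this rule, which is 3.31% (exact 95% interval 3.13% to 3.51%), and 1126 of them were on nuclear chromosomes and 9 on the mitochondrial genome. They reached 1155 of 20050 protein-coding genes, or 5.76% of all genes placed in the RefSeq table of the assembly GRCh38.p14. Strand could be read for 15843 of these genes (79.0%), and not for the others, which include every gene on chromosome 8. Among genes of known strand, 558 had a peak at the start, where 3.52% is the share of all such genes, and 304 had a peak at the end, where the share is 1.92%.

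The cells were HL-60, a human promyelocytic leukaemia line, differentiated towards a neutrophil-like state and induced to release neutrophil extracellular traps, the DNA webs that neutrophils cast out. The KAS library was treated with 5 mM N3-kethoxal for 10 min after induction for 4 h, and its label refers to the induction of the other libraries without stating a dose. The 4 thrombin pulldown libraries came from cells given 500 nM phorbol 12-myristate 13-acetate (PMA) for 4 h and then 1 µM biotinylated alpha thrombin for 1 h, and their peak lists were used here for overlap. The 4 input libraries were not analysed here. All groups share the differentiated line and the induction, there is no uninduced group among the samples used here, and peak lists hold no expression by which the cell state could be checked. With 1 KAS library there is no replicate check and no test. Intervals on shares and counts cover counting error only, and read depth is unknown because the lists give no library totals.

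KAS-seq uses N3-kethoxal, which reacts with guanines that are not paired, so that single-stranded DNA can be tagged with biotin and captured. In living cells the method is known for marking the transcription bubble of RNA polymerase II, which is found at gene starts where the polymerase pauses, along gene bodies, and past the polyadenylation site where it slows and leaves the template. Guanine-rich DNA that folds into G-quadruplexes and the displaced strand of RNA-DNA hybrids are other known single-stranded forms. Here the DNA was isolated from extracellular traps, where chromatin has been decondensed, and how far that DNA keeps the single-stranded state of the nucleus is not measured by these files.

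A selection of 6 promoters with high folds among peaks lying across a gene start is shown first, because sequence under the peak can be read there. Fold means the authors' fold enrichment, the ratio of the signal at the peak's summit to the peak caller's background. Pileup means the read height at the summit. The selection is not a complete ranking by fold. Peaks of LOC105371216 (fold 7.77), BCL7B (7.41) and AGPAT3 (7.25) also lay across a start, and their sequences are not shown. The 6 sequences below run 5′ to 3′ on the gene's own strand, from 250 bases before to 30 bases after the RefSeq start, in GRCh38.p14 coordinates, and were taken from a RefSeq promoter table. Capitals mark a G-quadruplex pattern on either strand, that is 4 runs of at least 3 G, or of at least 3 C, with 1 to 7 bases between runs. Matches were taken without overlap along each strand, so bases that belong only to an overlapping match stay in lower case.
TENT2 (chr5:79612191-79612470, plus strand): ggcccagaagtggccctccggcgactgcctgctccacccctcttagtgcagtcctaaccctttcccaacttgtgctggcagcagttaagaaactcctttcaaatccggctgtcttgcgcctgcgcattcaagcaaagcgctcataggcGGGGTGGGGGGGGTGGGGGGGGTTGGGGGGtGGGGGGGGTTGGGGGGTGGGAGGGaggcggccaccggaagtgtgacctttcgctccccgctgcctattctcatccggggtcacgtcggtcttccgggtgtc
KCND3 (chr1:111989639-111989918, minus strand): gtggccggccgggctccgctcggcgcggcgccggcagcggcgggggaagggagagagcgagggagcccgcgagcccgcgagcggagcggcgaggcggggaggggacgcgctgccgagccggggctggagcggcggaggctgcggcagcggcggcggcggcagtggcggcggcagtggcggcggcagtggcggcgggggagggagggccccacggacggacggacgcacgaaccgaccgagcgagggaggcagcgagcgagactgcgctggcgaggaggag
ADCY3 (chr2:24920208-24920487, minus strand): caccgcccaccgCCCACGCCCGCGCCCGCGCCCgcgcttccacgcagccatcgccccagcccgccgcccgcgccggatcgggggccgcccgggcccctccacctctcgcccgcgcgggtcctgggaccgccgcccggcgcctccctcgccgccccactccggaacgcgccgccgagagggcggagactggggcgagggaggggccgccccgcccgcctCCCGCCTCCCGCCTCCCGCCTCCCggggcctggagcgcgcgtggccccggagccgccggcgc
PLCB3 (chr11:64251280-64251559, plus strand): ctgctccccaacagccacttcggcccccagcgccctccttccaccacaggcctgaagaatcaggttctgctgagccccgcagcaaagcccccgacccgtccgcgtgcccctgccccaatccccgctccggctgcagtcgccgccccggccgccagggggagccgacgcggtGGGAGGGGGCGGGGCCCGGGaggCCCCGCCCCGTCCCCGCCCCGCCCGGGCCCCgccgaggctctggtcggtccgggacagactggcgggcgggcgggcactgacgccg
ZNF664 (chr12:123972965-123973244, plus strand): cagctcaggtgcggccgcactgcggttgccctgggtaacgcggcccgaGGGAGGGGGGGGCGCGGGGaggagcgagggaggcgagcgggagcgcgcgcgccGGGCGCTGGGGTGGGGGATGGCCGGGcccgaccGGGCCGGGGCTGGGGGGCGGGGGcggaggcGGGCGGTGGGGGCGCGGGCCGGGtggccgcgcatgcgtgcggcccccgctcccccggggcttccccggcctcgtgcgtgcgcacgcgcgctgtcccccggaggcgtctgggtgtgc
TXNL4A (chr18:80033907-80034186, minus strand): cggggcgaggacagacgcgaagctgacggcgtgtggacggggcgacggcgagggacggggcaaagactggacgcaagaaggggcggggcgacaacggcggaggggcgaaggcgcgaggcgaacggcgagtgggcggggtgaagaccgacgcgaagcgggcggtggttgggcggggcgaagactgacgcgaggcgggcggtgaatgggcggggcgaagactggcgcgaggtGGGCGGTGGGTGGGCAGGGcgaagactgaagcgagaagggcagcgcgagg
The TENT2 peak, 205 bases long at chr5:79612339-79612543, had its centre exactly at the start of the gene, which encodes a poly(A) polymerase, with pileup 13 and fold 7.87. Its sequence held the pattern in a tract of long G runs, with 54 bases in capitals parted by a single t, and 132 of its 280 printed bases lay under the peak. ZNF664, a zinc finger gene, had 91 bases in capitals, with pileup 12 and fold 6.83. ADCY3, an adenylyl cyclase, had 45 in C runs, meaning that the G runs are on the opposite strand, with pileup 12 and fold 7.30. PLCB3, a phospholipase C, had 51, with pileup 12 and fold 7.15. TXNL4A, a component of the spliceosome, had 19, with pileup 14 and fold 6.79. KCND3, a potassium channel gene, had none by this pattern although 81.4% of its printed bases were G or C, and its fold was 7.30 at pileup 12. The peak covered 247 of the printed bases in ADCY3, 187 in PLCB3, 187 in ZNF664, 246 in TXNL4A and 223 in KCND3. The first stretch of capitals in ADCY3 and the first in ZNF664 lay outside the peak. G and C made up between 64.6% of the TENT2 sequence and 85.7% of the ADCY3 sequence.

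Over all genes with a promoter window of 300 bases (250 before to 50 after the start), KAS peaks lay on windows rich in G and C. A KAS peak shared at least 1 base with 173 of 15841 windows, a background of 1.09%. The median G and C content was 79.0% in windows with a peak (middle 50% of windows 72.7% to 82.0%) and 62.7% in all windows (53.7% to 70%). The median ratio of observed to expected CpG was 0.945 in windows with a peak and 0.761 in all windows. The motif GGGCGG, the GC box bound by SP1 family factors, was found on either strand in 90.2% of windows with a peak and in 58.3% of all windows. The G-quadruplex pattern was found in 71.1% of windows with a peak and in 30.1% of all windows, and stretches in it can overlap GC boxes. It occurred on the gene's own strand in 44.5% of windows with a peak and 17.02% of all windows, and on the other strand in 39.9% of windows with a peak and 16.2% of all windows. Motifs rich in A and T went the other way. CCAAT was found in 23.7% of windows with a peak and 36.4% of all windows, and TATAAA, the TATA box, in 3.47% of windows with a peak and 9.75% of all windows. The motif ATTCC, whose repeats the study's title names as thrombin-binding single strands in extracellular traps, was found on either strand in 18.5% of windows with a peak and 31.9% of all windows. No window with a peak held 2 tandem copies of ATTCC, against 8 of all 15841 windows.

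The share of windows with a peak grew with base composition. It was 0.0351% (1 of 2845) in windows under 50% G and C, 0.225% at 50% to 60%, 0.410% at 60% to 70%, 2.01% at 70% to 80% and 12.96% (71 of 548, exact 95% interval 10.3% to 16.1%) at 80% and over. Within a class of like composition the G-quadruplex pattern separated windows less. At 80% and over it was in 84.5% of windows with a peak and 80.7% of windows without one. At 70% to 80% it was in 69.0% of windows with a peak and 58.1% without one, and at 60% to 70% in 54.5% of 22 windows with a peak and 31.8% without one. For the GC box the direction differed between classes: at 60% to 70% it was in 63.6% of windows with a peak and 70.6% without one, at 70% to 80% in 97.2% with a peak and 93.6% without one, and at 80% and over in 97.2% with a peak and 99.6% without one. The part of base composition in which windows had a peak was not tested.

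**Figure D1:**
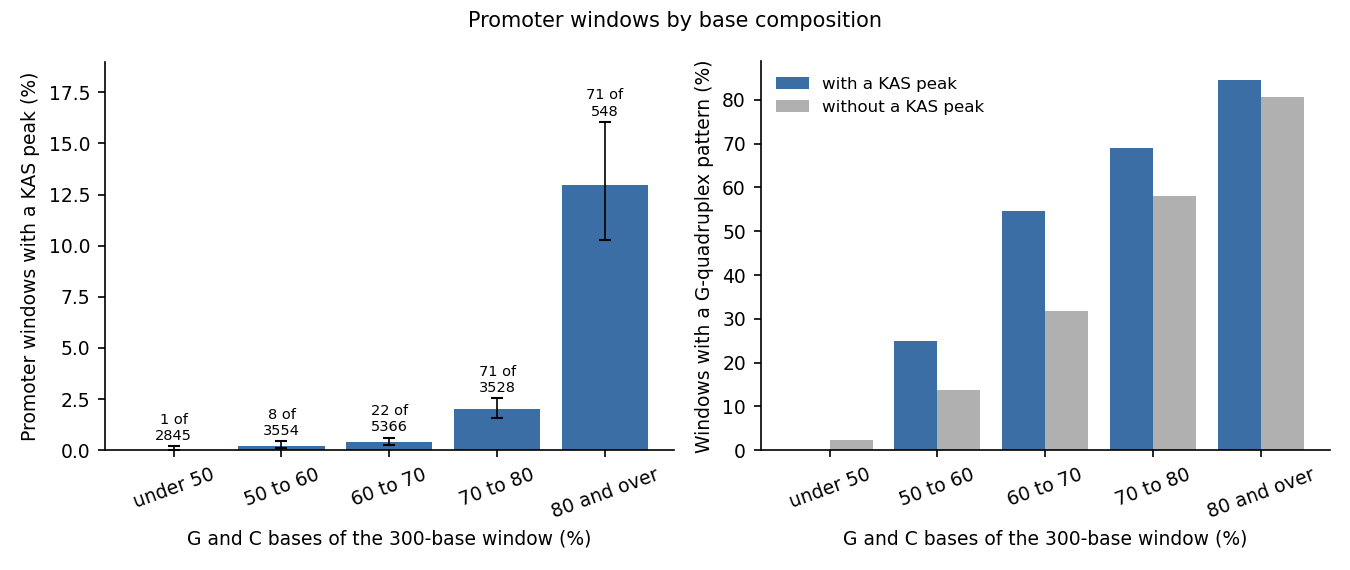
Percent of 300-base promoter windows that share a base with a KAS peak, by the percent of G and C in the window (left, error bars are exact 95% intervals), and percent of windows that hold a G-quadruplex pattern with and without a KAS peak (right). The left bars reach 12.96% in windows at 80% and over, while on the right the 2 bars of that class are 84.5% and 80.7%.

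Peaks at gene starts outnumbered peaks at gene ends, which compares the 2 boundaries and not a boundary with its surroundings. By class, 539 peaks lay at a start and at no known end, and 295 at an end and at no known start. A further 6 lay at the start of a gene and the end of another, and 295 only at genes of unknown strand, mitochondrial genes included. Peaks of the first 2 classes can also reach a gene of unknown strand. Of the 834 peaks in the first 2 classes, 64.6% were at starts (exact 95% interval 61.3% to 67.9%). Since a peak can reach more than 1 gene, there were 1223 pairs of a peak and a gene end. A single gene was reached by 1069 peaks, 2 genes by 59 peaks and at least 3 genes by 7 peaks.

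The position of the peak centre differed in form between starts and ends. Of 570 nuclear pairs at starts, 254 lay upstream of the gene, which is 44.6%, and the most populated class was the first 500 bases inside the gene with 189 pairs (33.2%). The 500 bases just upstream held 112 pairs, the rest of the kb upstream held 142, and the stretch from 500 to 1000 bases inside held 127. Of 309 nuclear pairs at ends, 241 lay downstream of the gene, which is 78.0% (exact 95% interval 73.0% to 82.5%). Only 20 of these pairs (6.47%) had their centre in the last 500 bases of the gene, whereas 96 lay in the first 500 bases past it and 145 in the rest of the kb past it. Of 309 nuclear pairs at genes of unknown strand, 56.0% lay outside the gene, a value between those of starts and ends.

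To see these positions against their surroundings, peak centres were counted along 11573 genes of known strand and at least 10 kb length, out to 5 kb on both sides of each boundary, and summed over genes. The first 500 bases inside the start held 316 peak centres per kb (exact Poisson 95% interval 269 to 369), against 174 (139 to 215) in the 500 bases just upstream and 200 (181 to 221) from 1 to 3 kb inside. Further upstream, from 3 to 5 kb, the count was 271.5 per kb (249 to 295), an interval that overlaps that of the first 500 bases inside the start. From 3 to 5 kb inside the start it was 251.5 per kb (230 to 274), which also overlaps it. The whole kb upstream of the start held 202 per kb (175 to 232) and the whole first kb inside held 258 (227 to 291). Neither was above the 271.5 per kb further upstream. The end of the gene was a trough. The last 500 bases of the gene held 30.0 peak centres per kb (15 peaks, interval 16.8 to 49.5) and the last 250 bases held 4 peaks. The count was 70 per kb from 500 to 1000 bases inside the end, 145 from 1 to 3 kb inside and 198.5 from 3 to 5 kb inside. Past the end it was 148 per kb in the first 500 bases (116 to 186) and 231 from 1 to 3 kb. Because neighbouring genes share flanks, the same count was made over the 5272 genes with no other protein-coding gene within 5 kb. There the first 500 bases inside the start held 170 peak centres per kb (136 to 210), against 88.0 just upstream (63.9 to 118), 65.0 from 1 to 3 kb inside (54.3 to 77.2) and 106.5 from 3 to 5 kb upstream (92.7 to 122). From 3 to 5 kb inside the start these genes held 86.5 per kb (74.1 to 100). The last 500 bases inside the end held 10.0 per kb, or 5 peaks (3.25 to 23.3), against 72.0 in the 500 bases past the end (50.4 to 99.7). Base composition past the promoter windows was not analysed here.

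**Figure D2:**
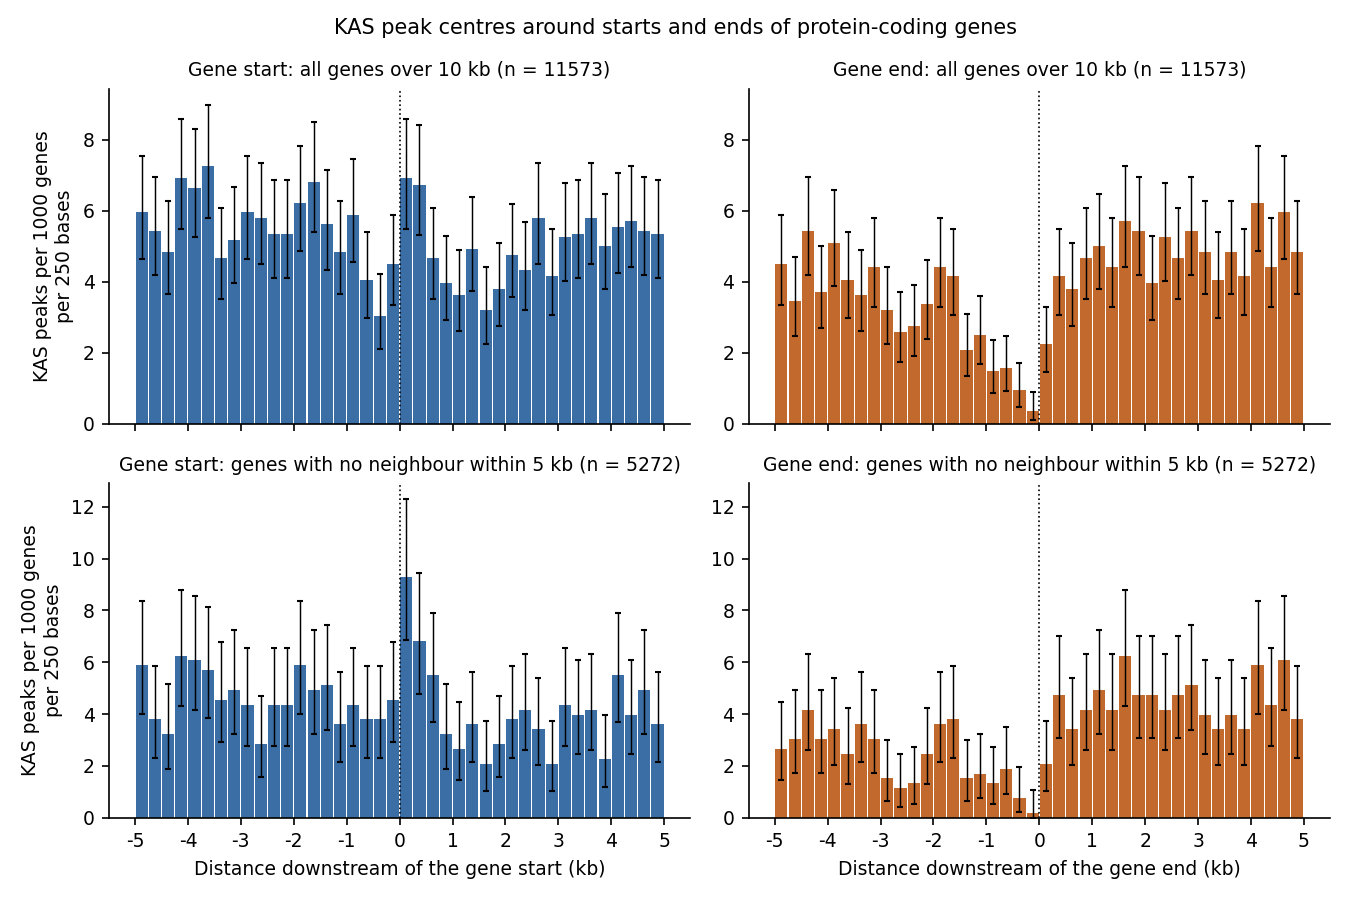
KAS peak centres per 1000 genes in bins of 250 bases along the direction of transcription around gene starts (left) and gene ends (right), for all genes of at least 10 kb (top) and for those with no protein-coding neighbour within 5 kb (bottom). Error bars are exact Poisson 95% intervals, and the bin just before the gene end is the lowest of all, with 4 peaks in 11573 genes and 1 peak in 5272 genes.

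Length and height of the gene-end peaks were close to those of other KAS peaks at the median and differed in the upper tail. The median length was 246 bases in gene-end peaks and 248 in other KAS peaks, and the shortest length in the list, 200 bases, was taken by 22.0% of gene-end peaks and 21.5% of the others. Lengths of at least 500 bases were reached by 57 gene-end peaks, or 5.02%, and by 7.75% of other KAS peaks. The median pileup was 10 reads in both sets. A pileup of at least 20 was reached by 35 gene-end peaks, 9 of them mitochondrial, which is 3.08%, and by 8.95% of other KAS peaks. No gene-end peak reached 200, the highest pileup of the list, which 32 other peaks did. The median fold was 5.36 in gene-end peaks and 5.43 in the others. Start peaks had a median length of 247 bases, a median pileup of 10 reads and a median fold of 5.39. End peaks had a median length of 246 bases, a median pileup of 9 reads and a median fold of 5.28. At such heights folds come in steps: 61 gene-end peaks share the fold 5.06 at pileup 8, and 59 share 5.18 at pileup 9, so ranks among most members are ties.

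**Figure D3:**
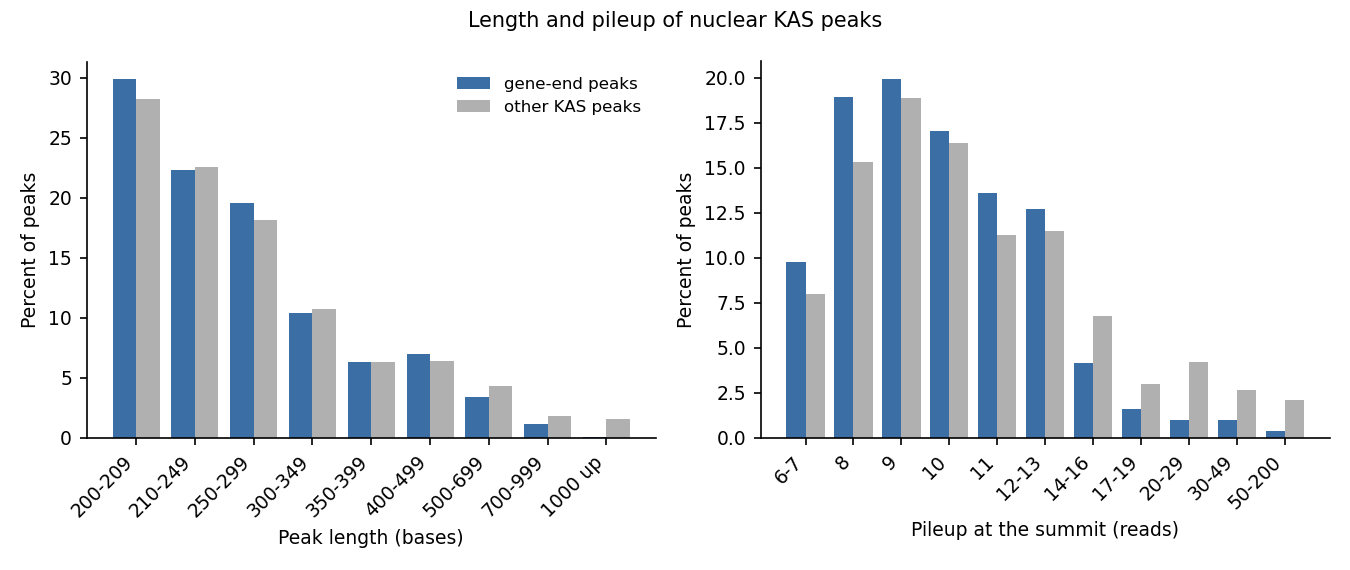
Percent of nuclear gene-end KAS peaks and of other nuclear KAS peaks in classes of peak length (left) and of pileup at the summit (right). From 14 reads up, the gene-end peaks hold the smaller share in every class.

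The strongest start peaks stood apart from the rest. RHOC, a small GTPase of the actin cytoskeleton, had the highest fold of all gene-end peaks, 21.0 at pileup 59, at chr1:112706357-112706669, 895 bases inside the gene from its start. YJU2, a splicing factor, had fold 17.2 at pileup 96, the highest pileup among nuclear members, at chr19:4247513-4247830, 591 bases inside. Both values are far from the median fold of 5.39 of start peaks, and both peaks are short, 313 and 318 bases. The next start peak was that of DEGS2, a sphingolipid desaturase and hydroxylase, with fold 10.0, pileup 18 and a length of 662 bases, 872 bases upstream. CIAO3, which takes part in building iron-sulphur proteins, had fold 9.32 at pileup 17, 742 bases upstream. CYSLTR2, a receptor for cysteinyl leukotrienes, had fold 9.28 at pileup 17, 425 bases inside. FCMR, the Fc receptor for IgM, had the longest peak among nuclear gene-end peaks, 1138 bases, with fold 9.02 at pileup 29, centred 998 bases upstream and so close to the 1 kb limit. RAB7B, a GTPase of endosomal traffic, had fold 7.93 in a peak of 742 bases, and ECE1, the endothelin-converting enzyme, had fold 7.87 in a peak of 933 bases, both upstream of the gene. MIER2, 292 bases inside, and TENT2, described above with its sequence, had the same fold of 7.87, and PPP1R14C tied with them.

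Some start peaks lay at a pair of genes read in opposite directions: 21 peaks lay within 1 kb of the starts of 2 genes on opposite strands. The strongest lay inside both ALYREF, an mRNA export adaptor, and ANAPC11, a subunit of the anaphase-promoting complex, with fold 8.80 at pileup 16, 189 bases inside ALYREF and 608 bases inside ANAPC11. The peak between DHX32, a helicase-like gene, and FANK1 had fold 8.17 at pileup 30, 389 bases inside DHX32 and 468 bases upstream of FANK1. KCNAB2, a potassium channel subunit, and NPHP4, a gene of the primary cilium, shared a peak of fold 7.30. B3GALT6, a glycosyltransferase, and SDF4 shared one of fold 6.74, and BCR and RSPH14 shared one of fold 4.90 that lay 114 bases inside BCR and 106 bases inside RSPH14.

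The 8 end peaks of highest fold all lay past the end of the gene. TMC7, a transmembrane channel-like gene, had fold 10.3 at pileup 18, at chr16:19064407-19064985, 754 bases past its end. ELL, an elongation factor of RNA polymerase II, had fold 9.24 at pileup 22, 329 bases past its end, in a peak of 631 bases. RAMACL had fold 9.18 at pileup 21, 912 bases past the end. SON, a protein of nuclear speckles that takes part in splicing, had fold 9.16 at pileup 38, 194 bases past the end, and the same peak lay 124 bases inside DONSON, a replication gene whose strand was not given. RNF6, an E3 ubiquitin ligase, DDX28, a mitochondrial RNA helicase, KRTCAP3 and AK1, an adenylate kinase, had folds between 7.87 and 7.93, at 229 to 454 bases past the end. A further 6 peaks lay at the ends of 2 genes on opposite strands, among them that of MAFF, a small MAF transcription factor, and TMEM184B with fold 5.42, and that of STK11, the kinase LKB1, and CBARP with fold 5.06.

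The 20 pairs whose centre lay in the last 500 bases of a gene are named here because the stretch is so thinly filled. The strongest was RBM34, an RNA-binding protein, with fold 7.09 at pileup 16, 183 bases before its end. SFXN1, a mitochondrial serine transporter, had fold 6.74, ACVR2B, an activin receptor, 6.53, and CFAP20DC 6.61. The peak nearest to an end was that of FUT3, a fucosyltransferase, with fold 4.66 at pileup 8 and its centre 2 bases inside. DNMT3A, a DNA methyltransferase, had fold 4.75 at pileup 17, 358 bases before its end. The others were NKX1-1, PEAK3, GMFG, ZNF490, LACTBL1, SLC22A12, WDR86, CBARP, CREB3L3, UPK3BL1, LOC124902420, ZNF397, MUC3A and APCDD1, with folds from 3.84 to 6.08. These genes, like those of unknown strand and the peak pairs described here, were named after their values were seen.

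**Figure D4:**
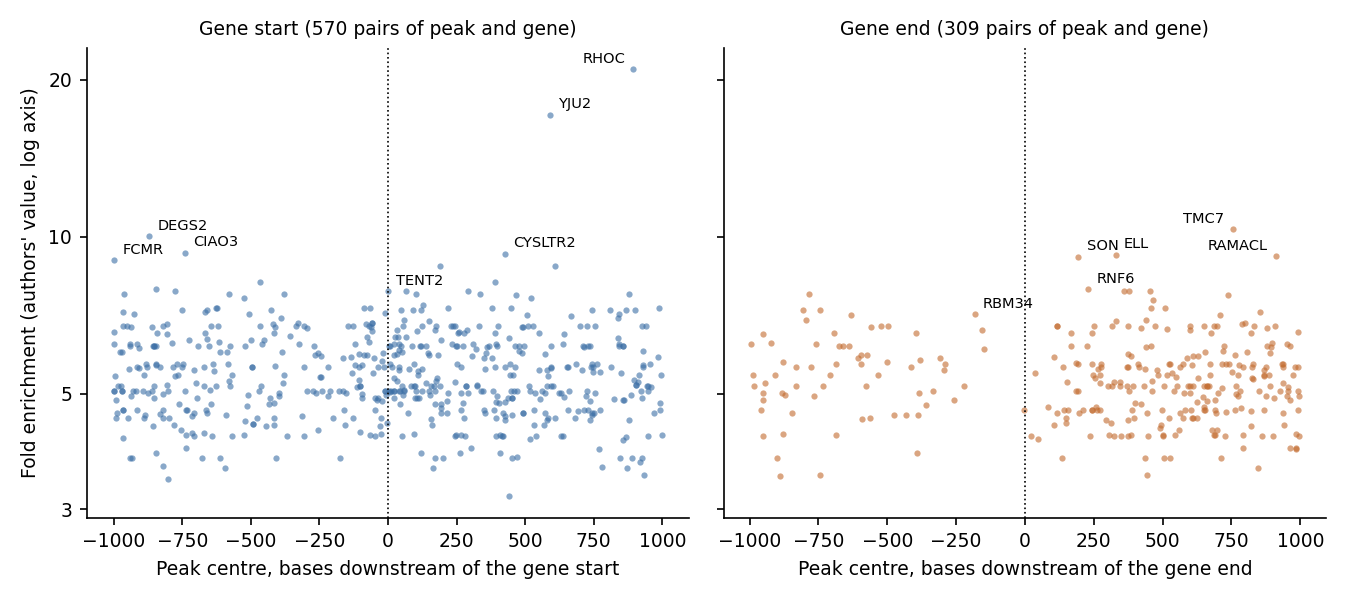
Fold enrichment (log axis) of each nuclear pair of a KAS peak and a gene boundary against the distance of the peak centre downstream of the gene start (left) or gene end (right), 1 point per pair. RHOC and YJU2 lie above all other start pairs, and on the right few points lie in the last 500 bases before the gene end.

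Few genes had more than 1 peak at their ends: 1106 genes had 1 peak and 49 had at least 2. A peak at the start and another at the end were found in 11 genes of known strand. NKX1-1, a homeobox gene, had 4 peaks, with folds 5.18 and 4.35 at its start and 6.08 and 5.70 at its end, all 4 within or beside a gene of 3511 bases. UPK3BL2, a uroplakin-like gene, had fold 6.14 at its start and 6.26 at its end. MLXIPL, a glucose-responsive transcription factor, had 4.66 at its start and 6.18 at its end. TUBB4A had 4.37 at its start and 6.17 at its end. TBXA2R, the thromboxane receptor, had 5.67 at its start and 5.58 at its end, and SDHB, a subunit of succinate dehydrogenase, had 5.06 at its start and 5.36 at its end. DNMT3A, 114717 bases long, had 4.44 at its start and 4.75 at its end. None of these peaks had a pileup above 17 reads.

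Where strand was not given, several nuclear members had folds above 10. CCL5, the chemokine RANTES, had fold 12.4 at pileup 21, at chr17:35871947-35872211, 588 bases inside a gene boundary. PRDM6, a repressor of the PR domain family, had fold 12.2 at pileup 34, only 45 bases outside the gene, and CASC3, a subunit of the exon junction complex, had 11.6 at pileup 21, 122 bases outside. High pileup did not go with high fold in every case. The peaks beside LOC101929627, LOC124902048 and LOC101929601 on chromosome 8 had pileups of 62, 53 and 49 but folds of 5.60, 6.06 and 4.85. These loci, of about 2 kb, lie close together, and USP17L18 with pileup 42 and fold 4.37 belongs to a family of near-identical deubiquitinase genes. The sources used here do not say how the authors placed reads that match several copies, so peaks at such copies are uncertain as to the copy.

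The 9 mitochondrial members were of another kind. They lay within 1 kb of a boundary of 12 of the 13 mitochondrially encoded protein genes. They had pileups from 142 to 191 and lengths from 203 to 2097 bases. Their folds ran from 1.73 to 2.45, below all nuclear members, whose lowest fold was 3.16. The longest, 2097 bases with fold 2.45, had its centre 213 bases inside a boundary of ND5, a subunit of respiratory complex I. On so compact a genome almost any position lies within 1 kb of a gene boundary, and only 1 of its 10 KAS peaks did not.

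By gene family the share of genes with a peak was mostly near the background of 5.76%. Of 509 ZNF zinc finger genes, 31 had a peak (6.09%, exact 95% interval 4.18% to 8.53%), 16 at starts, 11 at ends and 4 with unknown strand. The leading ones were ZNF221 with fold 7.87 and ZNF200 with 7.77. Of 394 solute carriers, 21 had a peak (5.33%), led by SLC2A3, a glucose transporter, with fold 7.25. Of 232 TMEM genes, 17 had a peak (7.33%), 12 of them at starts. Mitochondrial ribosomal proteins had 7 of 77 and RAB GTPases 7 of 66, and both intervals hold the background value (3.73% to 17.8% and 4.37% to 20.6%). Olfactory receptors had 5 of 392, or 1.28% (0.415% to 2.95%), an interval below the background. They were OR6J1, OR1M1, OR7G1, OR7G2 and OR2B11, with folds from 4.49 to 6.21. Cytosolic ribosomal proteins had 3 of 85, histones 2 of 81 (H2BC8 and H2AC8, both past the end of the gene) and keratin-associated proteins 2 of 94. No peak was found at the ends of 66 protocadherin, 39 HOX, 21 HLA, 48 proteasome subunit, 13 interferon alpha or 39 beta defensin genes. A count of 0 allows a share of up to 4.55% of the protocadherins (3 counts of 66), and of up to a value above the background in each of the smaller families.

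Small families in which several members had a peak were picked after their values were seen, so their shares are a description. Of 6 activin receptor genes, ACVR2B, ACVR2A and ACVR1 had peaks, with folds 6.53, 5.93 and 5.62. Of 10 ANAPC genes, ANAPC11, ANAPC5 and ANAPC1 had peaks at their starts, with folds 8.80, 5.06 and 4.10. Of 14 NKX homeobox genes, NKX1-1, NKX2-2 and NKX2-4 had peaks. CACNG6, CACNG7 and CACNG8, which encode auxiliary subunits of calcium channels or glutamate receptors and lie in 1 cluster on chromosome 19, had folds between 4.66 and 5.06, and CACNG6 and CACNG8 share a peak.

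Lists of genes of the treatment, the trap and transcription had few members with a peak and few genes in all. Of 28 neutrophil granule and trap genes, 3 had a peak: LYZ (lysozyme) with fold 6.18, AZU1 (azurocidin) with 5.06 and MMP9 (gelatinase B) with 4.51. Of 8 NADPH oxidase genes only RAC1 had one, with fold 4.66, and of 32 genes of the PMA and immediate early response only PLAUR, the urokinase receptor, with 4.14, past its end. None of 15 myeloid transcription factors, 24 coagulation genes, 18 cleavage and termination genes or 18 markers of other cell types had a peak. Of 27 genes of RNA polymerase II and elongation, POLR2H, a polymerase subunit, had fold 5.20 and CDK9, the kinase that releases paused polymerase, 4.14. Of 22 genes that handle R-loops and single-stranded DNA, PIF1 and WRN, both DNA helicases, had fold 5.06 each. Of 20 housekeeping genes, ENO1, an enolase, had 4.66. The exact intervals of all these lists hold the background of 5.76%.

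The chromosomes differed widely in how many of their genes had a peak. On chromosome 18 it was 40 of 270 genes, 14.8% (exact 95% interval 10.8% to 19.6%), and on chromosome 19 it was 153 of 1451, 10.5% (9.01% to 12.2%). On chromosome X it was 5 of 848 genes, 0.590% (0.192% to 1.37%), namely TAF7L, IL13RA2, PWWP4, SAT1 and NALF2, all named after their values were seen. Chromosome 18 held 1420 KAS peaks in all and chromosome X, with 848 genes, held 162. As a share of a chromosome's own KAS peaks, gene-end peaks made up 2.89% on chromosome 18 and 3.09% on chromosome X, both near the 3.31% of the whole list, and 6.77% (5.79% to 7.85%) on chromosome 19. On chromosome 18 the highest fold was that of FAM210A, 6.88 at 329 bases past its end, followed by C18orf63, 789 bases past its end, and the shared start peak of TXNL4A and RBFA, both with 6.79.

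**Figure D5:**
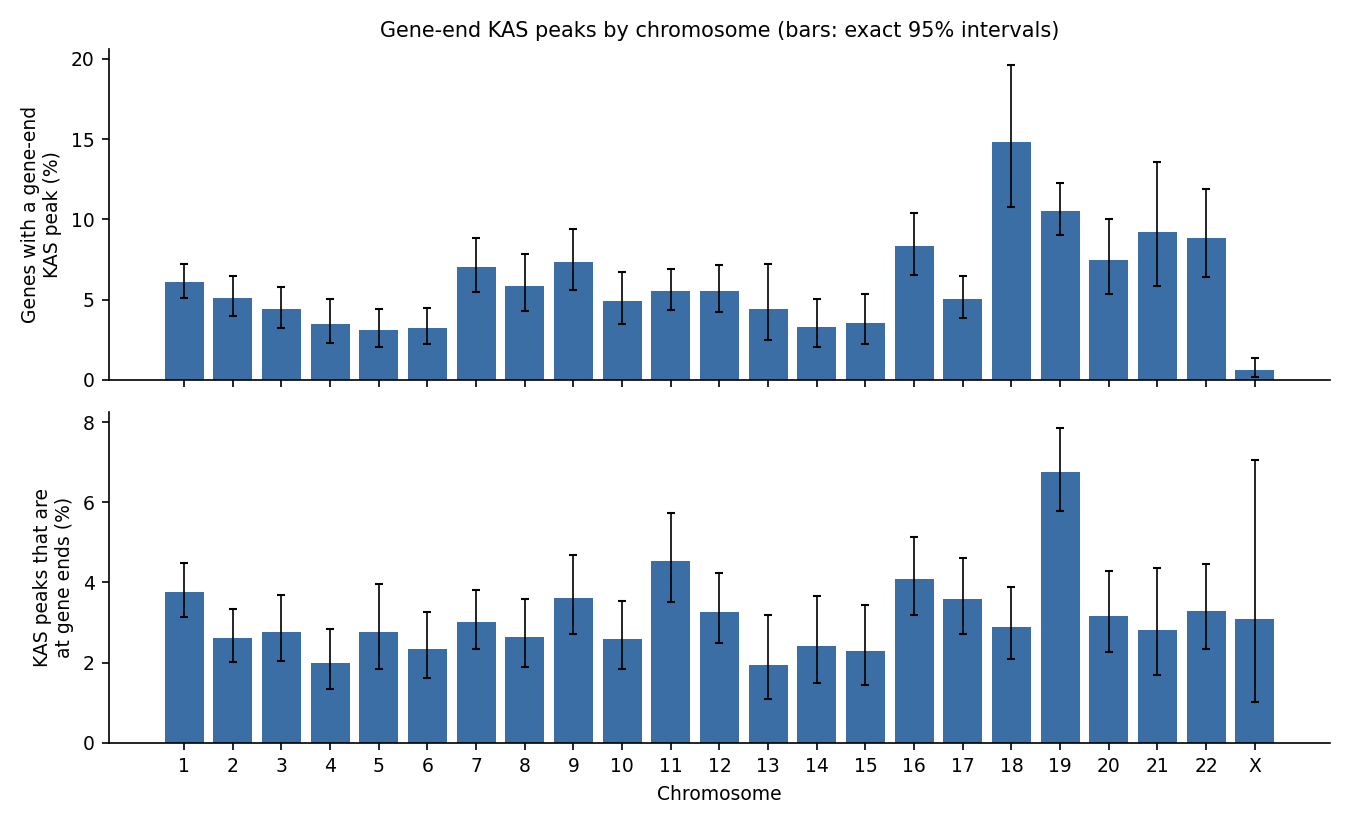
Percent of protein-coding genes with a gene-end KAS peak (top) and percent of all KAS peaks that are gene-end peaks (bottom) on chromosomes 1 to 22 and X, with exact 95% intervals. Chromosome 18 leads at the top with 14.8% but not at the bottom with 2.89%, while chromosome 19 is high in both, with 10.5% and 6.77%.

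Gene-end KAS peaks and thrombin pulldown peaks were almost wholly apart. Of the 1135 gene-end peaks, 2 shared at least 1 base with a pulldown peak, both on the mitochondrial genome (at ND4 and at ND5) and both in pulldown replicate 1 alone. Of the 1126 nuclear gene-end peaks none did, a count that allows a share of up to 0.266%. Of the 33112 other KAS peaks, 726 overlapped a pulldown peak, or 2.19%. Per pulldown list the share was 0.0441% ± 0.0881 of gene-end peaks and 1.34% ± 0.454 of other KAS peaks (SD, n = 4), and in each of the 4 lists the gene-end peaks had the lower share. The labels do not say that the pulldown libraries came from separate cultures.

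The 1 kb limit did not fall at a gap in the values. Just inside it, at 999 bases, were TMCC1, OCA2 and FBP2 with folds 5.06, 5.06 and 6.21, and just outside, at 1001 bases, were RPAP1 and CEP192 with folds 5.18 and 4.21, followed by KRT77 at 1002 bases with fold 4.78.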

How the data were processed

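The authors' deposited peak lists, 1 per library, were used as they stand. The build was GRCh38.p13, per the submitters' processing notes. These notes also list the tools MACS2 2.2.7.1, BWA, bedtools 2.30.0, Picard 2.27.4 and SAMtools 1.6, with no role or setting for any of them. The sources used here do not say whether inputs served as control. The deposited pileup signal at the summit is not normalized between libraries and does not exceed 200 in the KAS list. The authors' caller also gave a deposited −log10 q and a −log10 p for each peak, and no KAS peak had a −log10 q below 2.00. The deposited fold is the authors' ratio of summit signal to the peak caller's background, and it served only to rank and describe peaks within the KAS list. Peak length, in bases, is also the authors' value, per the file headers. KAS peak numbers begin at 1951 and run without gaps, and any lower numbers were not analysed here.

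Genes came from a RefSeq table of GRCh38.p14, whose chromosomes share coordinates with the build of the peaks. A peak was a member when the middle of its interval lay within 1 kb of either boundary of a protein-coding gene. Strand was read from RefSeq promoter windows, which gave it for 15843 of 20050 genes. Their reading direction was checked by the pyrimidine-purine step at the start, present in 75.2% and 75.5% of windows on the plus and minus strand and in 22.1% and 21.9% of mirrored windows. In 87.2% of genes the window lay at the outer gene boundary. Members per gene list, family, chromosome and position were counted, with exact (Clopper-Pearson) 95% intervals for shares and exact Poisson intervals for counts, and a count of 0 was given an upper limit of 3 counts. No test was made, since there is 1 KAS library.

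The members, lists and families were chosen with earlier results of these data known. Genes were named by rule: the 12 start and 8 end peaks of highest fold, the 5 of highest pileup and the 5 longest, up to 5 genes with peaks at both ends, peaks that overlap a pulldown peak, and up to 6 genes per list. Genes of unknown strand, 11 small families, gene pairs, some of the genes with peaks at both ends, genes named by chromosome or family and peaks in the last 500 bases of a gene were added after their values were seen. Of 213 list genes 212 were found by symbol. The values of 1 gene of unknown strand are not reported here. Scripts ran in Python 3.11.15 with SciPy 1.17.1, pandas 2.3.3 and NumPy 2.4.6, and the assignment of peaks to gene ends was tested on simulated peaks. Alternatives changed the distance, the point of the peak, the fold threshold, the mitochondrial genome, the overlap rule and the pulldown lists used.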

Additional observations from a re-analysis of the deposited data

Results flagged for a closer look

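Pulldown replicate 1 overlapped 2 gene-end KAS peaks, whereas pulldown replicates 2, 3 and 4 overlapped 0, which makes replicate 1 stand apart from the other 3. Both overlaps were on the mitochondrial genome. With the other 3 libraries tied at 0, any count above 0 would have been marked in this way, so the mark carries little weight. The cause was not tested.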

How the results depend on the processing

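Within 500 bases of a gene end the number of peaks was 566, of genes 576, of start peaks 72.3% and of end pairs outside the gene 82.8%. Within 2 kb these were 2310, 2308, 58.6% and 66.5%. The counts follow from the distance itself, and the cause of the moved percentages was not tested. In the 50% of KAS peaks with the higher fold there were 542 peaks at 558 genes, with a median pileup of 11, and 0% overlapped a pulldown peak. That overlap was also 0% when at least 50% of the KAS peak had to be covered and without the mitochondrial genome. The 2 members that overlapped were mitochondrial, with folds of 2.18 and 2.45. The fold setting and the mitochondrial setting therefore removed them by construction, and their 0% adds no further check. Leaving out each pulldown replicate gave 0% to 0.176%, with 0% only without replicate 1. Under all alternatives, 15 values moved and 41 stayed within their interval or within 1.5 times the count. Those 41 include all of those with the peak summit, with only the nearest gene end, without peaks at the highest pileup, and over genes with no neighbour within 5 kb, where 66.5% of peaks were at starts and 75.4% of end pairs lay outside the gene. The settings without the mitochondrial genome, those over genes with no neighbour, and the share outside the gene were added after seeing the data. No paired analysis was possible because there is 1 KAS library and no result comes from a test. The median pileup was 10 reads, read depth is unknown, and there is no replicate to show how many peaks would be called again.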
